A study of Homo sapiens with 6 samples.

Results

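The genes described here are 40 factors that build ribosomes: factors of RNA polymerase I (Pol I) transcription, of small nucleolar ribonucleoproteins (snoRNPs) and of ribosomal RNA (rRNA) processing and subunit assembly. They were taken as a named list, matched by symbol to the Ensembl identifiers of the count tables. The rule uses membership in the list and no value cutoff, but the list was drawn up with earlier results of these data known. All 40 were found among the 61552 identifiers, and all 40 were among the 17084 genes with enough reads to be tested. The RNA came from the established human cell line MDA-MB-231, a model of triple-negative breast cancer. One group of cells had received 10 µM VNLG-152R, a retinamide that the study describes as a degrader of the MNK kinases, for 24 h. The other had received its dimethyl sulfoxide (DMSO) vehicle for 24 h. Each group had 3 libraries, and no genotype was altered in either. The transcriptome was sequenced to learn what the compound does to the RNAs of these cells, and the comparison below asks this of the ribosome assembly genes. The study states that the treatment was done in triplicate, but neither it nor the labels say whether the 3 replicates were independent experiments, and each p-value therefore reflects the spread among these libraries alone, which may be technical.

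In the nucleolus, Pol I transcribes the rRNA precursor, snoRNPs modify it and guide its cleavage, and a succession of assembly factors folds it with ribosomal proteins into the small and the large subunit. Box C/D snoRNPs direct ribose methylation, and box H/ACA snoRNPs direct pseudouridylation. Proliferating cancer cells make many ribosomes, and many genes of this machinery are known targets of the transcription factor MYC, which binds the E-box, CACGTG.

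The libraries held 69923839 to 82151816 counts in genes with VNLG-152R and 60122936 to 68583224 in vehicle controls, so each treated library was deeper. Read pairs in no annotated gene made up 3.36% to 5.05% with VNLG-152R, the highest in replicate 2, against 2.63% to 3.17% in vehicle controls. The line's mesenchymal markers were present, with VIM at 3397 to 4323 CPM (counts relative to library size, TMM-normalized) with VNLG-152R and 4911 to 5166 CPM in vehicle controls, whereas ESR1 did not exceed 0.097 CPM and the leukocyte marker PTPRC did not exceed 0.033 CPM in any library. The endothelial marker PECAM1 was measured at 22.8 to 26.5 CPM with VNLG-152R and 21.3 to 24.5 CPM in vehicle controls. VIM and CAV1 fell by 0.39 and 0.60 on the log2 scale (edgeR, adjusted p = 0.0472 and 0.00480). The other mesenchymal and basal-like markers, CD44, AXL and ZEB1, overlapped between groups at log2 fold changes of -0.10, -0.15 and 0.07 (edgeR, adjusted p = 0.553, 0.443 and 0.684). Whether any of these differences had a part in the results below was not tested. In bulk RNA, fewer cells that express a gene and less RNA per cell cannot be told apart.

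Because the E-box is the element best known for this gene group, promoters were searched for CACGTG, which reads the same on both strands. Windows of 250 bases before to 50 bases after each transcription start (RefSeq, GRCh38.p14) were available for 34 of the 40 members. The motif occurred in 16 of them (47.1%), against 12.1% of the 11465 tested genes with a window and 8.77% of all 27305 genes with one. BOP1, RRS1, RRP12, NOLC1, DDX18 and NOP58 were not matched. The following stretches, 5′ to 3′ with the motif in capitals, are first from 4 members described below whose RNA was lower in every treated library. Left out are GNL3 and DDX21, which also had the motif and were lower in every treated library, and a second match in EBNA1BP2. The last stretches are from GAR1 and UTP20, which hold the same motif and were not lower beyond the spread. Both were chosen after their values were seen.
BYSL (chr6:41921515-41921544, plus strand): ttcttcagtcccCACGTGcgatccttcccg
PES1 (chr22:30591880-30591909, minus strand): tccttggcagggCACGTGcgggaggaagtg
WDR43 (chr2:28894658-28894687, plus strand): cgcacggacgaaCACGTGgctgcagcgggg
EBNA1BP2 (chr1:43172790-43172819, minus strand): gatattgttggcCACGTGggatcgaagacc
GAR1 (chr4:109815781-109815810, plus strand): gggccagaggggCACGTGgcgccggtgagt
UTP20 (chr12:101280083-101280112, plus strand): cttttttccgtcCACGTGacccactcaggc

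The median log2 fold change was -0.13 over the 16 members with CACGTG in the window and -0.20 over the matched members without it, and this difference was not tested. Among the 34 matched members, every treated library was below every control library for 6 of the 16 with the motif and for 10 without. The groups differ in size, and the share over all tested genes was 13.4%. Of the members called changed below, NHP2, NOP16 and DKC1 do not have these letters in the window. A second motif, the ETS-type CCGGAAGT searched on both strands, which contains no E-box, occurred in 10 of the 34 members (29.4%) and in 9.45% of tested genes. These are matches of letters and were not measured as binding, and the unmatched members include BOP1 and RRS1, which had the lowest log2 fold changes of the 40 members.

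The RNAs of the ribosome biogenesis factors lay slightly and broadly lower with VNLG-152R. Of the 40 members, 36 had a log2 fold change below 0, against 50.4% of all tested genes. The median log2 fold change was -0.19, against -0.0024 over all tested genes, and the range ran from -0.51 for BOP1 to 0.45 for NOP2. No member changed 2-fold, and the lowest, BOP1, was at 70.2% of its control level. Single genes were tested with the quasi-likelihood test of edgeR, with p-values adjusted over all 17084 genes and a threshold of 0.05.

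At that threshold 4 members fell, namely BOP1, NHP2, NOP16 and DKC1, and 36 did not pass. In this comparison 5.19% of all tested genes were called changed, 1.43% lower and 3.76% higher. No member was called higher by edgeR or by DESeq2, and none had an unadjusted p under 0.05 in that direction, as 12.8% of tested genes did. An unadjusted p under 0.05 was reached by 17 members in the lower direction, against a background of 9.76%. DESeq2 called 12 members lower, against 3.73% of the genes for which it gave an adjusted p.

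The count of 4 changed when a single library was left out, in fits that also had fewer samples. Leaving out VNLG-152R replicate 1 gave 8 calls, and leaving out control replicate 2 gave 1 (BOP1). Leaving out VNLG-152R replicate 2 or 3, or control replicate 1 or 3, gave 0. The share of all tested genes called lower moved as well, to 1.98% without VNLG-152R replicate 1 and to between 0.251% and 0.82% in the other fits. The median log2 fold change of the members was between -0.23 and -0.16 in these 6 fits, and 34 to 36 members were below 0 in each.

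Separation between libraries was more frequent than the calls. In 20 members (50.0%) every VNLG-152R library was below every control library, against 13.4% of all tested genes. In 2 members, UTP20 and NOP2, every treated library was above every control library, against 15.1% of tested genes, and in 18 the groups overlapped. Among genes that averaged 20 CPM or more, a limit chosen after the values were seen, 17.0% of genes were separated downward and 1.9% were called lower, and 36 members met that limit, with 20 separated downward and 4 called.

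**Figure D1:**
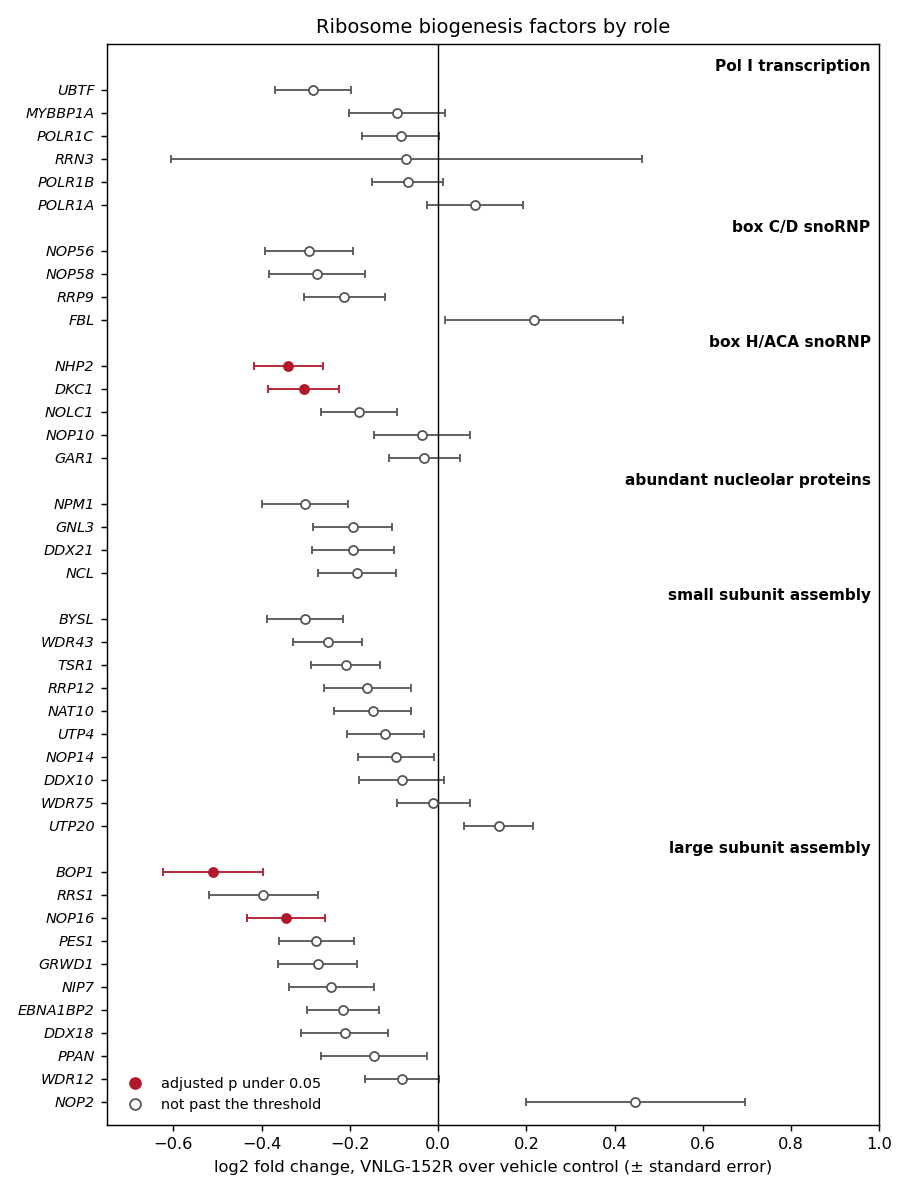
Log2 fold change with VNLG-152R relative to vehicle control of each of the 40 members with its standard error from edgeR, grouped by role, with filled red points for an adjusted p under 0.05. Points lie left of 0 for 36 members, and 4 are filled: NHP2, DKC1, BOP1 and NOP16.

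Among the roles, the 6 factors of Pol I transcription had the median log2 fold change nearest to 0, at -0.08, and none was called. UBTF, the HMG-box protein that coats active rRNA genes, had the smallest p of them. It measured 153, 129 and 146 CPM in VNLG-152R replicates 1 to 3, against 180, 168 and 173 CPM in vehicle controls. All treated libraries were below all controls, and the log2 fold change was -0.28 (standard error 0.09, edgeR adjusted p = 0.0818).

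MYBBP1A, a nucleolar protein that binds Pol I, measured 209, 157 and 168 CPM with VNLG-152R, against 177, 187 and 204 CPM in vehicle controls, so the groups overlapped. The polymerase subunits POLR1A (largest), POLR1B (second largest) and POLR1C (shared with Pol III) had log2 fold changes of 0.08, -0.07 and -0.08, and their groups overlapped as well. RRN3, which brings Pol I to the promoter, was counted only 41, 194 and 56 times with VNLG-152R and 146, 63 and 41 times in vehicle controls. Its log2 fold change of -0.07 had a standard error of 0.53, with libraries of both groups scattered far apart. RRN3 has near-identical pseudogenes, which held 0 to 2 counts per library, and reads that align to several places are not counted, so its level is uncertain.

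Of the 4 box C/D factors none was called, and the median log2 fold change was -0.24. NOP56, a core scaffold protein of these particles, measured 222, 227 and 197 CPM with VNLG-152R, against 292, 233 and 266 CPM in vehicle controls. The groups did not overlap, although treated replicate 2 lay close to control replicate 2, and the log2 fold change was -0.29 (standard error 0.10, edgeR adjusted p = 0.107). Its partner NOP58 gave 91.2, 103 and 104 CPM with VNLG-152R and 142, 108 and 111 CPM in vehicle controls, again without overlap (log2 fold change -0.28, edgeR adjusted p = 0.159). RRP9, which binds the U3 snoRNA, had a log2 fold change of -0.21 with overlapping groups.

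FBL, the methyltransferase of the box C/D particle, measured 10.7, 10.1 and 6.86 CPM with VNLG-152R and 5.64, 7.87 and 10.2 CPM in vehicle controls. The groups overlapped, and the log2 fold change of 0.22 was about the size of its standard error of 0.20. Per kilobase of transcript the level of FBL was 7.95 CPM with VNLG-152R and 6.81 CPM in vehicle controls, against 89.6 and 110 CPM for NOP56, its partner in the same particle. The annotation behind the counting is not known, and whether all reads of FBL were counted was not tested, so its level is uncertain.

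The 5 box H/ACA factors included 2 of the 4 calls, and their median log2 fold change was -0.18. NHP2, a core RNA-binding protein of these particles and of telomerase, measured 83.9, 87.9 and 84.8 CPM with VNLG-152R, against 111, 102 and 111 CPM in vehicle controls. The treated libraries lay close to each other and below all controls. NHP2 fell by 0.34 on the log2 scale (standard error 0.08, edgeR adjusted p = 0.0300). When each library was left out in turn, NHP2 passed in 1 of 6 fits (edgeR adjusted p 0.0444 to 0.149). The gene lies on chromosome 5 from 178149460 to 178153967, minus strand (GRCh38, GENCODE release 29), and 27.4% of its exon bases lie under the antisense gene RMND5B. The libraries are strand-specific, but the strand setting of the counting is not given in the sources used here.

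DKC1, the pseudouridine synthase of the H/ACA particle, measured 162, 168 and 169 CPM with VNLG-152R and 220, 197 and 199 CPM in vehicle controls. There was again no overlap, with control replicate 1 highest. DKC1, on chromosome X from 154762742 to 154777689, plus strand, fell by 0.31 (standard error 0.08). Its edgeR adjusted p of 0.04995 was only just under the threshold, and it did not pass when any 1 of the 6 libraries was left out (adjusted p 0.0775 to 0.153).

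The other core proteins of the same particle gave no such difference. GAR1 measured 57.2, 61.3 and 59.3 CPM with VNLG-152R, against 57.7, 61.7 and 62.4 CPM in vehicle controls (log2 fold change -0.03, standard error 0.08, edgeR adjusted p = 0.852). For NOP10 the groups overlapped at a log2 fold change of -0.04, with a standard error of 0.11. NOLC1, a phosphoprotein that chaperones snoRNPs, was lower in every treated library at 252 to 298 CPM, against 308 to 321 CPM in vehicle controls, but did not pass the test (edgeR adjusted p = 0.245).

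All 4 abundant nucleolar proteins were separated downward, against 13.4% of all tested genes, and none was called. NPM1, a nucleolar chaperone that is often mutated in leukemia, measured 865, 942 and 997 CPM with VNLG-152R, against 1275, 1087 and 1095 CPM in vehicle controls. Control replicate 1 stood above the other libraries, and the log2 fold change was -0.30 (standard error 0.10, edgeR adjusted p = 0.0930). Per kilobase of transcript NPM1 had the highest level of all 40 members, at 532 CPM with VNLG-152R and 656 CPM in vehicle controls. NCL (nucleolin) followed at 190 CPM per kilobase with VNLG-152R and 216 CPM per kilobase in vehicle controls.

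NCL, the RNA helicase DDX21 and the GTPase GNL3 (nucleostemin) had log2 fold changes of -0.18, -0.19 and -0.19. For DDX21 the highest treated library, at 302.6 CPM, was barely below the lowest control library, at 303.3 CPM.

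Of 10 factors of small subunit assembly none was called, and the median log2 fold change was -0.13. Groups were separated downward in 3, against 13.4% of all tested genes, and upward in 1, against 15.1%. BYSL, needed for late maturation of the small subunit, measured 118, 100.3 and 107 CPM with VNLG-152R, against 128, 133 and 139 CPM in vehicle controls. Its groups did not overlap, and its log2 fold change was -0.30 (standard error 0.09, edgeR adjusted p = 0.0642). WDR43, a component of the early processome that also acts in rRNA transcription, measured 58.1, 57.3 and 61.0 CPM with VNLG-152R, against 71.4, 68.6 and 69.7 CPM in vehicle controls. Every treated library was lower and the replicates were tight, but at a log2 fold change of -0.25 (standard error 0.08) the edgeR adjusted p was 0.0858. TSR1, a late cytoplasmic factor, was the third gene separated downward, at -0.21.

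NOP14, a processome protein with one of the higher levels in this group, overlapped between groups at 251, 213 and 236 CPM with VNLG-152R and 255, 247 and 246 CPM in vehicle controls. NAT10, the RNA acetyltransferase, RRP12, UTP4, DDX10 and WDR75 had log2 fold changes from -0.16 to -0.01, all with overlap. UTP20, a very large scaffold protein of the processome, was the only small subunit factor above 0, at 101, 92.9 and 96.9 CPM with VNLG-152R, against 88.6, 90.3 and 85.1 CPM in vehicle controls. Its treated libraries were all above the controls, with a log2 fold change of 0.14 (standard error 0.08, edgeR adjusted p = 0.326). After the correction for transcript length described below, its log2 fold change was -0.01.

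The 11 factors of large subunit assembly held the other 2 calls. Their median log2 fold change was -0.24, and 7 were separated downward, against 13.4% of all tested genes. An unadjusted edgeR p under 0.05 was reached by 7, all lower, against 9.76% of all tested genes. BOP1, a scaffold of the PeBoW complex with PES1 and WDR12 that processes the large-subunit rRNA, measured 150, 110 and 128 CPM with VNLG-152R, against 202, 168 and 182 CPM in vehicle controls. All treated libraries were below all controls, and BOP1 had the largest scatter among treated libraries of the 4 called genes. BOP1, on chromosome 8 from 144262102 to 144291370, minus strand, fell by 0.51 (standard error 0.11, edgeR adjusted p = 0.0243). With a block for replicate number it was the only member that passed. When each library was left out in turn, BOP1 passed in 2 of 6 fits. Its edgeR adjusted p was highest, at 0.0905, without VNLG-152R replicate 3.

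NOP16, a nucleolar factor of the large subunit precursor, measured 52.7, 50.9 and 46.4 CPM with VNLG-152R and 67.0, 58.5 and 64.9 CPM in vehicle controls. The groups did not overlap, and NOP16, on chromosome 5 from 176383938 to 176388975, minus strand, fell by 0.34 (standard error 0.09, edgeR adjusted p = 0.0446). It passed in 1 of the 6 fits that left out a library (edgeR adjusted p 0.0333 to 0.176). Like NHP2, it is among 7 members with at least 10% of their exon bases under an antisense gene.

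PES1, the second member of the PeBoW complex, measured 134, 115 and 117 CPM with VNLG-152R, against 147, 145 and 152 CPM in vehicle controls. It was lower in every treated library, with a log2 fold change of -0.28 (standard error 0.09, edgeR adjusted p = 0.0818). RRS1, which in yeast helps to insert the small ribosomal RNA of the large subunit, measured 28.5, 19.3 and 24.4 CPM with VNLG-152R and 30.0, 30.9 and 34.0 CPM in vehicle controls. Its log2 fold change of -0.40 was the second lowest, but the treated libraries scattered widely (standard error 0.12, edgeR adjusted p = 0.0859). EBNA1BP2, a nucleolar partner of large subunit precursors, measured 138, 157 and 147 CPM with VNLG-152R, against 178, 167 and 169 CPM in vehicle controls. These did not overlap either (log2 fold change -0.22, edgeR adjusted p = 0.144).

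GRWD1, a WD-repeat chaperone, and NIP7 were likewise separated downward, at log2 fold changes of -0.27 and -0.24. The helicase DDX18 overlapped at -0.21, and WDR12, the remaining PeBoW protein, overlapped at -0.08. PPAN was counted 454, 416 and 439 times with VNLG-152R and 378, 390 and 449 times in vehicle controls, and NOP2, an rRNA methyltransferase, 38, 46 and 52 times with VNLG-152R and 21, 30 and 32 times in vehicle controls. These 2 levels are uncertain, because 59.8% of the exon bases of PPAN and 54.4% of those of NOP2 are shared with read-through genes or neighbors in GENCODE release 29, and reads that fit more than one gene are not counted. NOP2 was higher in every treated library, with a log2 fold change of 0.45 that did not pass (standard error 0.25, edgeR adjusted p = 0.313). Without FBL, NOP2, RRN3 and PPAN, a choice made after their low counts were seen, 34 of 36 members were below 0 and the median log2 fold change was -0.20.

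**Figure D2:**
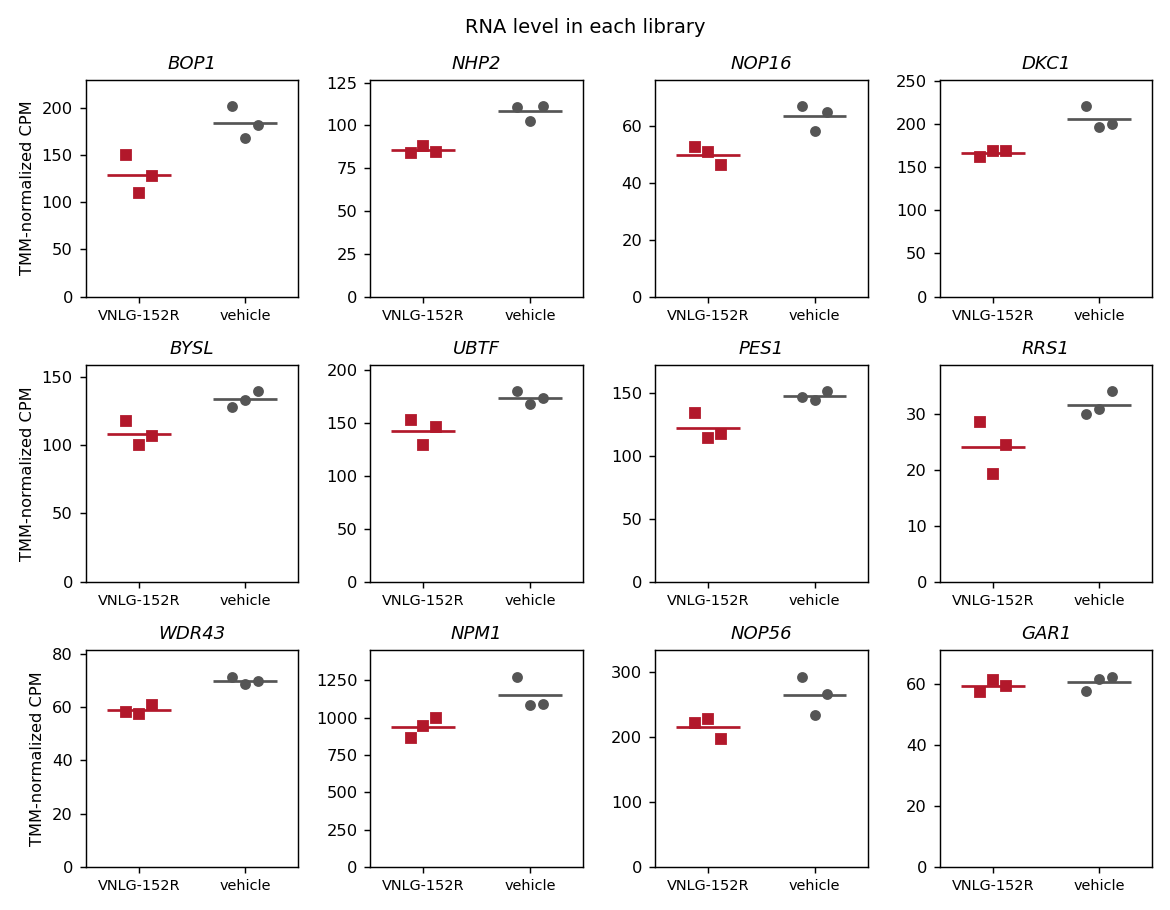
TMM-normalized CPM of 12 members in each library, with VNLG-152R as red squares, vehicle control as grey circles and a line at each group mean; every axis starts at 0. The groups do not overlap in 11 panels, from BOP1 (110 to 150 CPM with VNLG-152R, 168 to 202 CPM in vehicle controls) to NOP56, and overlap for GAR1.

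The ratio of partners within each library, which does not depend on library scaling, is given as a description, since the pairs were chosen after the changes of their genes were seen. Of 9 ratios computed, 4 did not overlap between groups, all lower with VNLG-152R. Each of these 4 sets a called gene over a partner that was not called. The calls alone favor a lower ratio in such pairs, so these 4 are not a separate result. NHP2 to GAR1 was 1.47, 1.43 and 1.43 with VNLG-152R, against 1.93, 1.66 and 1.78 in vehicle controls. DKC1 to GAR1 was 2.82, 2.74 and 2.85 with VNLG-152R and 3.82, 3.18 and 3.19 in vehicle controls. The remaining 2 were NHP2 to NOP10 and BOP1 to PES1, the BOP1 to PES1 ratio being 1.12, 0.961 and 1.09 with VNLG-152R and 1.37, 1.16 and 1.20 in vehicle controls.

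The ratio of the 2 called H/ACA genes overlapped between groups. NHP2 to DKC1 was 0.519, 0.523 and 0.502 with VNLG-152R and 0.504, 0.521 and 0.558 in vehicle controls. The box C/D pair NOP56 to NOP58 also overlapped, as did BOP1 to WDR12, where VNLG-152R replicate 1 at 2.16 reached the lowest control at 2.15. PES1 to WDR12 and DKC1 to NOP10 overlapped too.

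**Figure D3:**
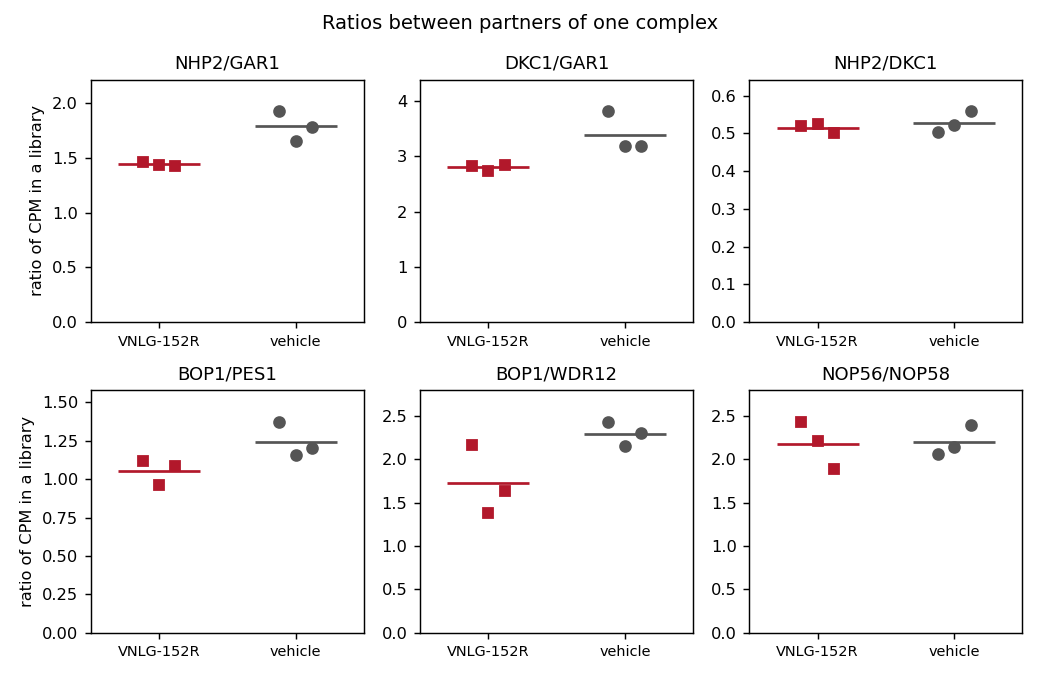
Ratio of the CPM of 2 partners in each library, VNLG-152R as red squares and vehicle control as grey circles, with lines at the group means and axes from 0. NHP2/GAR1, DKC1/GAR1 and BOP1/PES1 are lower in all treated libraries, whereas NHP2/DKC1, BOP1/WDR12 and NOP56/NOP58 overlap.

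The lower level of the members was present in each treated library to a different extent. The median deviation of the members from their mean over all libraries was -0.05, -0.13 and -0.10 on the log2 scale in VNLG-152R replicates 1 to 3, and 0.13, 0.05 and 0.10 in control replicates 1 to 3. The same median over all tested genes was between 0.00013 and 0.011 in every library. Control replicate 1 was the highest library for 21 members, and VNLG-152R replicate 2, the library with the largest share of pairs in no gene, was the lowest for 17. As a share of the TMM-scaled library size, which is not the raw total of gene counts, the members made up 0.572%, 0.542% and 0.572% with VNLG-152R. In vehicle controls this share was 0.679%, 0.629% and 0.643%.

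Transcript length moved with the fold changes of all genes. Across 16731 tested genes with a length, which are not independent replicates, Spearman's rho of log2 fold change with transcript length was 0.22. Over 10 bins of equal gene number ordered by length, the median log2 fold change was lowest, at -0.09, in the bin next to the shortest and highest, at 0.14, in the longest. The members had a median length of 2899 bases, against 2787 for all tested genes, and over the 40 members rho was 0.25. The 4 members over 6 kb, POLR1A, UTP20, WDR12 and DDX10, had a median log2 fold change of 0.00086. After a correction for transcript length these 4 had log2 fold changes of -0.13, -0.01, -0.21 and -0.18. The median of all 40 members after this correction was again -0.19. With it edgeR called 217 of 16731 genes lower, and 3 of them were members, BOP1, UBTF and GRWD1. NHP2, NOP16 and DKC1 then had log2 fold changes of -0.27, -0.27 and -0.29 and no longer passed (edgeR adjusted p = 0.0631, 0.0905 and 0.0624). UBTF and GRWD1 newly passed, both at a log2 fold change of -0.33 (edgeR adjusted p = 0.0422 and 0.0459).

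**Figure D4:**
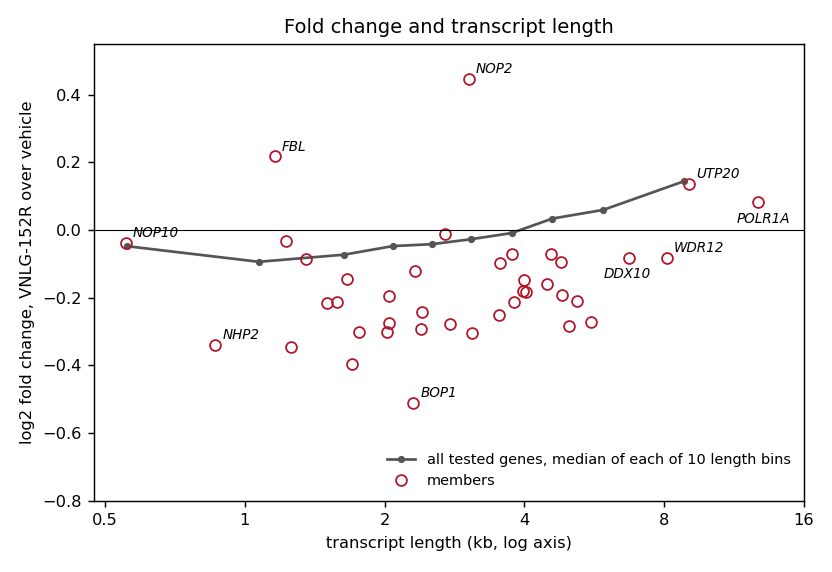
Log2 fold change with VNLG-152R relative to vehicle control against transcript length in kilobases on a log axis, with members as red circles and the median of all tested genes in each of 10 length bins as a grey line. Most members lie below the line, and the longest ones, such as UTP20 and POLR1A, lie near or above 0.

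snoRNAs are processed from introns of several of these genes. In GENCODE release 29, 9 members contain 28 snoRNA genes. The median log2 fold change of these hosts was -0.21, against -0.16 for the other members, a difference that was not tested. Of the 9 hosts, 7 were separated downward, against 20 of all 40 members and 13.4% of all tested genes. The snoRNAs themselves are short and mostly lack a poly(A) tail, so they were not assessed in these libraries.

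A wider list of 142 other ribosome biogenesis genes, compiled by role, was placed beside the members. Of the 137 tested, 5 fell, 1 rose and 131 did not pass, against the 1.43% and 3.76% of all tested genes called lower and higher. Their median log2 fold change was -0.14, and 119 were below 0, against 50.4% of all tested genes. Separation downward was seen in 42 (30.7%), against 13.4% of all tested genes. The gene that rose was MDN1, the giant ATPase that strips factors from large subunit precursors, at 127, 119 and 99.5 CPM with VNLG-152R, against 63.9, 91.5 and 73.5 CPM in vehicle controls. Its log2 fold change of 0.59 (edgeR adjusted p = 0.0224) was not called after the length correction, where it was 0.31. MDN1 has a transcript of 18413 bases.

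POLR1G, a Pol I subunit, was the gene among those 5 with the lowest log2 fold change. It measured 35.9, 28.8 and 34.9 CPM with VNLG-152R, against 49.2, 42.2 and 46.3 CPM in vehicle controls, without overlap, and fell by 0.47 (edgeR adjusted p = 0.0230). The nucleolar protein CCDC86, the helicase DDX49, the U3 snoRNP protein IMP3 and the large subunit factor MRTO4 fell by 0.39, 0.37, 0.33 and 0.30 (edgeR adjusted p = 0.0425, 0.0438, 0.0430 and 0.0498). When each library was left out in turn, 0 to 7 of the wider genes were called lower and 0 or 1 higher, and the count of lower genes was 0 in the fits that left out VNLG-152R replicate 2 or 3 or control replicate 1 or 3, and 1 in the fit that left out control replicate 2. MDN1 was not called in the fits that left out VNLG-152R replicate 2 or control replicate 1 or 3.

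By role, the median log2 fold change was -0.15 for 48 further small subunit factors, -0.14 for 53 further large subunit factors, -0.10 for 16 exosome subunits and rRNA nucleases, -0.09 for 10 snoRNP assembly factors and -0.08 for 10 further Pol I factors. As among the members, the median for Pol I factors was the nearest to 0. POLR1H, WDR46, AATF, SURF6 and ZNHIT3 had 0 to 9 counts per library and were not tested.

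**Figure D5:**
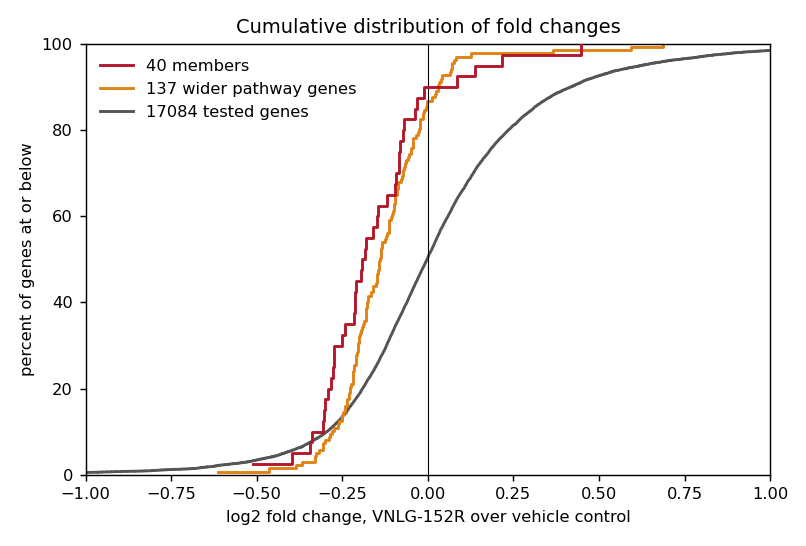
Percent of genes at or below each log2 fold change, VNLG-152R relative to vehicle control, for the 40 members (red), 137 wider pathway genes (orange) and all 17084 tested genes (grey). The median lies at -0.19 for members, -0.14 for the wider genes and -0.0024 for all tested genes.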

How the data were processed

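The authors deposited raw read counts per Ensembl gene for 6 polyA-selected, strand-specific, paired-end libraries. The submitters' processing notes name HISAT, HTSeq, DESeq and GRCh38, and neither the annotation release nor the strand setting is given in the sources used here. HTSeq's classes for pairs in no gene, ambiguous (4.81% to 5.16%) or not uniquely aligned (7.81% to 8.12%) were left out of the totals, and shared reads are therefore lost. Depth was 60122936 to 82151816 counts. Groups were compared in R 4.3.3 with edgeR 4.0.16 (TMM, filterByExpr, quasi-likelihood test, Benjamini-Hochberg adjustment over 17084 genes, threshold 0.05), after it was tested on simulated data. The standard error is the log2 fold change over the square root of F. Alternatives included DESeq2 1.42.0, voom of limma 3.58.1, other scalings and filters, thinning to the shallowest library, leaving out each library, and a correction for transcript length (lowess, span 0.3, on deviations of log2 CPM with a prior count of 2). Lengths and coordinates are from GENCODE release 29, which may differ from the authors' annotation, and promoters from RefSeq.

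The members, the lists and the tests were chosen with earlier results of these data known. Values are given for each member called changed, for the 10 with the smallest p, for the smallest p and the highest level per kilobase in each role, and for the highest and lowest fold change; other members are named as partners in a complex or for their low counts, after their values were seen.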

Additional observations from a re-analysis of the deposited data

How the results depend on the processing

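Among the 15 members chosen by the naming rule, none changed sign with a call under the 16 alternatives: of 239 values, 192 kept direction and side of the threshold, 33 no longer passed and 14 newly passed. No member was called higher under any alternative. The members' median log2 fold change was between -0.20 and -0.18 under the settings that kept every library and between -0.23 and -0.16 when a library was left out. The number of members called lower was 4, and it became 12 with DESeq2, 1 with a replicate block, 1 with the replicate block and length correction together, and 0 to 8 when a library was left out. It was 3 with library size only, with length correction and with voom. The genes called also changed: with no expression filter the count was 4, but RRS1 passed and DKC1 did not. Genes called changed numbered 887, against 1539 with no expression filter, 1454 with DESeq2, 397 with the replicate block, 285 with the block and length correction, and 264 to 948 when a library was left out. Under the other settings they numbered 676 to 901. The wider genes called lower numbered 5, against 3 with library size only, 1 with the replicate block, 2 with length correction, 1 with both, 11 with DESeq2 and 0 to 7 when a library was left out. Under the other settings they numbered 4 to 7. The 1 wider gene called higher was lost (0) with length correction, with both together and without some libraries (0 to 1). Beyond fewer samples in the left-out fits, the cause was not tested.

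The labels do not say whether the replicate numbers pair the libraries. Same-numbered deviations from the group means correlated at -0.19, -0.17 and -0.11, and differently numbered ones at 0.01 to 0.15. Deviations within a group of 3 libraries constrain each other, so these values cannot settle the question. The standard errors of the log2 fold changes of RRN3, NOP2 and FBL, 0.53, 0.25 and 0.20, were the highest among the members; NOP2 and RRN3 had 21 to 194 counts per library.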
